A study of Mus musculus with 9 samples.

Results

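The non-tumor liver of a tumor-bearing mouse was set against normal liver. The comparison used 6 of the 9 arrays of the series, chosen by their sample titles: 3 pieces of liver from a wild-type mouse and 3 pieces of liver taken beside the tumor of a SART1+/- mouse, called adjacent-labelled liver or adjacent pieces here. Both animals were 12 month old male C57Bl6 mice on regular chow without treatment. By the diagnosis in the sample notes, the wild-type tissue was normal liver in which steatosis was mild. The adjacent tissue held altered cells, and its steatosis was severe. The remaining 3 arrays are hepatocellular carcinoma of the SART1+/- animal, also severely steatotic. The sources used here do not give how, or in which cells, the allele was altered. Each group is 1 animal cut into 3 pieces. P-values measure the spread between pieces, and an effect of the genotype, of the neighbouring tumor, of the grade of steatosis or of the individual mouse cannot be told apart. Of 18194 genes measured by a probe set with 1 gene symbol, 13888 were bright enough to be tested.

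Hepatocytes carry out most of the chemistry of the liver, which includes making plasma proteins and bile acids, clearing nitrogen through the urea cycle, breaking down amino acids and releasing glucose. They divide this work along the lobule, between the portal inflow and the central vein, and in mice the growth hormone pattern of each sex sets the level of many of their genes. In steatosis they store triglyceride in droplets coated by perilipins and CIDE proteins. Sart1, the gene altered in this line, encodes a component of the spliceosomal tri-snRNP that is also known as hypoxia-associated factor.

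The values are log2 RMA values, on which a difference of 1 is 2-fold. Differences are adjacent minus wild type with the standard error (SE) of the limma fit, n = 3 pieces per group. A gene is called when its adjusted p is under 0.05 and its difference is at least 1 in size, and "rose" and "fell" are used for called genes. The labelled tissue was checked first. Alb, which encodes albumin, was at 14.45, 14.46 and 14.45 in the wild-type pieces and at 14.51, 14.51 and 14.45 in the adjacent pieces. The defining hepatocyte transcript was thus at the top of the scale in all 6. The largest value on the arrays was 14.51, and whether signal that high can show a loss was not tested. Of 25 secreted plasma proteins of hepatocytes 0 were called higher and 3 lower, or 12.0%, where 2.46% of all genes measured were called lower. The list median was -0.02. Markers of exocrine pancreas, which can be cut with liver, had a median of -0.03 over 5 tested genes with 0 of 8 measured called. Sart1 did not separate the 2 livers, at 8.35, 8.32 and 8.36 in wild-type and 8.34, 8.39 and 8.38 in adjacent pieces, while the tumor pieces of the same animal were at 7.77, 7.71 and 7.75. Xist, transcribed from an inactive X chromosome, was low in all 6 pieces (5.83 to 6.11 and 5.43 to 5.65). Nnt, whose loss marks 1 C57BL/6 substrain, was at 10.67 to 10.70 and 10.62 to 10.83. Sart1, Xist and Nnt were not called. With the Y genes Kdm5d, Eif2s3y and Uty they form a list of 6, of which 1 was called higher and 0 lower. The called gene was thus a Y gene. Without wild-type piece 1 there were 0 higher, and without adjacent piece 2 there were 2. Of all genes measured 6.33% were called higher. Arrays of the same liver correlated at r of 0.9966 to 0.9981 and arrays of the 2 livers at 0.9658 to 0.9692, across probe sets that are not independent. The middle probe set of the 18S ribosomal RNA control was at 6.92, 8.02 and 8.31 in wild-type and 6.34, 6.68 and 6.27 in adjacent pieces, and its part in the results was not tested.

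The adjacent-labelled liver had moved far from the wild-type liver, and more genes had gained than lost. Of the 13888 genes tested, 1152 were called higher, which is 8.29%, and 447 lower, which is 3.22%. Together they were 11.5% of the tested and 8.79% of the measured genes. With the size limit dropped, 63.0% passed an adjusted p of 0.05, 4728 genes higher (34.0%) and 4017 lower (28.9%), and the 3 values of each liver did not overlap for 69.5%. At 4-fold or more there were 318 genes higher (2.29%) and 88 lower (0.634%), and at 16-fold or more 39 (0.281%) and 12 (0.0864%). The median difference over all tested genes was -0.01. Some gains were of genes that were dim in wild-type liver: 132 of the 1152 lay at or below the 40th percentile of the array in all 3 wild-type pieces, and 18 of the 447 losses did so in the adjacent pieces. For those genes the size of the difference depends on background.

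**Figure D1:**
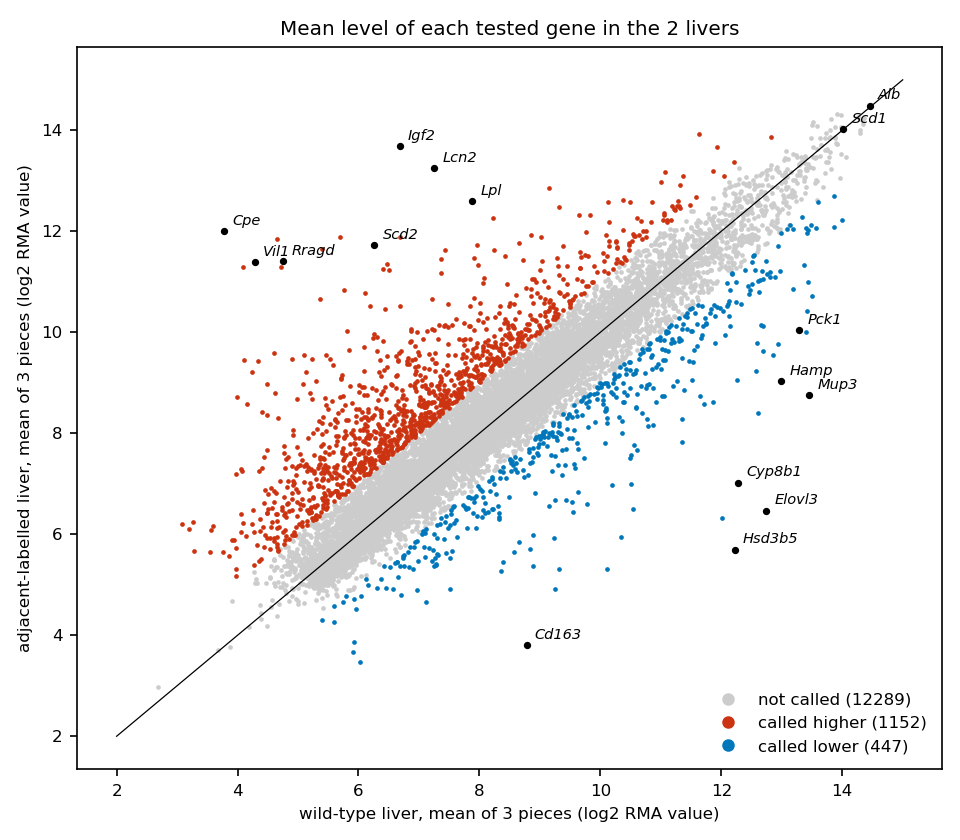
Mean log2 RMA value of each tested gene in wild-type liver (horizontal axis) and adjacent-labelled liver (vertical axis), 3 pieces each, with called genes in red (1152 higher) and blue (447 lower) and the line of equal level. The largest gains reach from the bottom of the scale to above 12, while Alb and Scd1 lie on the line.

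The largest gains were of genes that normal adult liver hardly transcribes. Cpe, which encodes the prohormone-processing carboxypeptidase E, was at 3.94, 3.72 and 3.68 in the wild-type pieces and at 12.07, 11.83 and 12.09 in the adjacent pieces, a difference of 8.22 (SE 0.10, adjusted p = 4.24e-12). It went from below the 40th percentile to among the brighter transcripts in every piece. A second, dim probe set of Cpe gave -0.37. Apela, which encodes a peptide ligand of the apelin receptor, rose by 7.21 (SE 0.10), and the tetraspanin Tspan8 by 7.20 (SE 0.09). Ubd, which encodes the ubiquitin-like protein FAT10, rose by 6.57 (SE 0.22), from 5.09, 4.55 and 4.54 to 11.13, 11.53 and 11.21. Cbr3, a carbonyl reductase, rose by 6.20 (SE 0.11). Lcn2, which encodes the siderophore-binding lipocalin 2, was at 7.20, 7.01 and 7.54 against 13.25 in each of the 3 adjacent pieces, a rise of 64.1-fold. The serine synthesis enzyme Psat1 rose by 5.34 (SE 0.16), the stem and progenitor cell surface protein Prom1 by 5.08 (SE 0.13) and the trefoil factor Tff3 by 4.88 (SE 0.17). The largest gains were picked among genes without overlapping values, so the lack of overlap in these 9 follows from that choice. Of all tested genes, 69.5% had no overlap.

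Several of the largest gains stood higher in the adjacent pieces than in the tumor of the same animal. The adjacent arrays enter both differences, so the tumor values are given side by side and not as a second test. Igf2, which encodes a fetal growth factor that mouse liver silences after birth, was at 6.84, 6.82 and 6.38 in wild-type pieces, at 13.73, 13.62 and 13.69 in adjacent pieces and at 7.40, 7.05 and 7.40 in tumor pieces. That is a 128-fold rise (SE 0.13 on the log2 scale, adjusted p = 1.25e-10) and a tumor minus adjacent difference of -6.39 (SE 0.13, adjusted p = 7.57e-10). Igf2 was among the brightest transcripts on the adjacent arrays, and in the tumor it was close to its level in normal liver. Its other probe set also rose, by 2.38. Eci3, a peroxisomal enoyl-CoA isomerase, was at 4.41, 4.37 and 3.93, then at 9.24, 8.81 and 9.61, and in the tumor at 4.17, 3.94 and 3.97. Vil1, which encodes the microvillus protein villin, rose by 7.11 (SE 0.26) to 11.27, 11.41 and 11.51, with the tumor lower than the adjacent pieces by a difference of -3.32. Rragd, which encodes the Rag GTPase D that carries amino acid signals to mTORC1 at the lysosome, was at 4.95, 4.95 and 4.38 in wild-type pieces and at 11.47, 11.32 and 11.45 in adjacent pieces. Its tumor values were 8.87, 8.68 and 8.87, a tumor minus adjacent difference of -2.61 (SE 0.14). The membrane-binding annexin Anxa13, of intestinal epithelium, had a tumor minus adjacent difference of -2.65 after a rise of 6.24, and the surface protein gene Plet1 of -2.38 after a rise of 4.85.

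**Figure D2:**
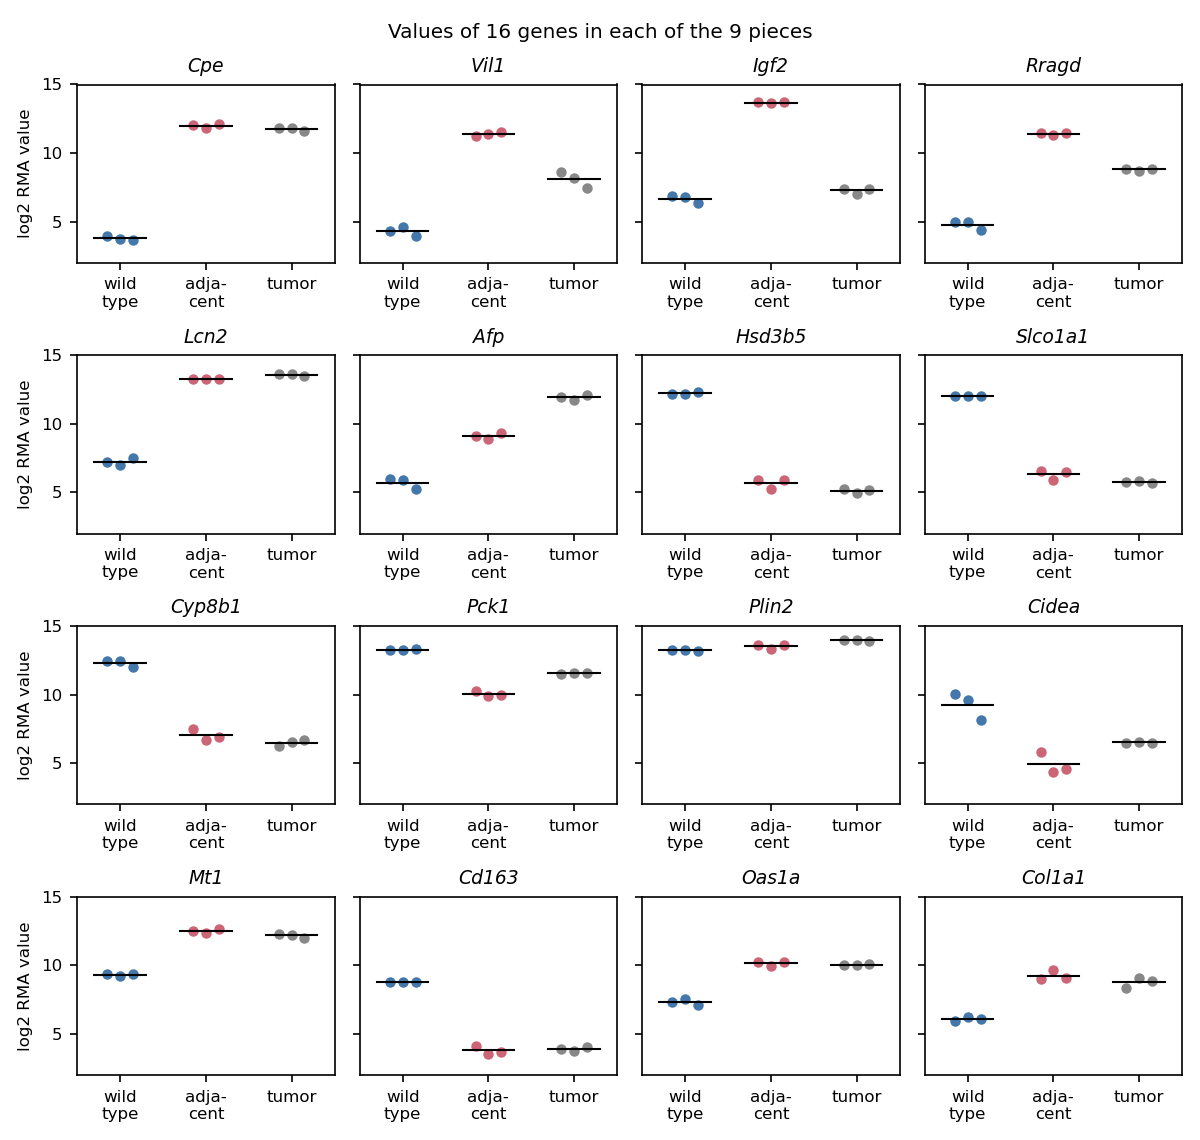
Log2 RMA values of 16 genes in the 3 wild-type, 3 adjacent-labelled and 3 tumor pieces (points), with the mean of each group as a bar. Igf2 is near 13.7 in the adjacent pieces and at 7.4 or below in the other 6, and Plin2 lies between 13 and 14 in all pieces.

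Many genes of fetal liver and of liver tumors were higher in the adjacent pieces. Of 19 measured fetal and oncofetal genes 10 were called higher and 1 lower, or 0 lower without wild-type piece 2 or adjacent piece 3, where 6.33% of all 18194 genes measured were called higher and 2.46% lower. The list's median was 1.47 over its tested members, against -0.01 over all tested genes. Over all measured members it was 1.04, against -0.06 over all genes measured. Afp, the fetal plasma protein alpha-fetoprotein, was at 5.98, 5.93 and 5.23 in wild-type pieces, 9.10, 8.87 and 9.31 in adjacent pieces and 11.96, 11.75 and 12.08 in the tumor, a rise of 3.38 (SE 0.19) with the tumor above it by 2.83. Of its 4 other probe sets, 2 gave 6.32 and 4.13, from wild-type means of 3.57 and 3.98. The remaining pair gave -0.01 and 0.04, from wild-type means of 5.43 and 5.16, near the 40th percentile of the arrays. Golm1, a Golgi membrane protein used as a serum marker of liver cancer, rose by 3.84 (SE 0.07), Cd24a, a surface protein of progenitor cells, by 3.64 (SE 0.21), and the trypsin inhibitor gene Spink1 by 2.75 (SE 0.16). The oncofetal proteoglycan gene Gpc3 did not follow: it was at 5.68, 5.68 and 5.47 against 5.46, 5.49 and 5.42 in adjacent pieces, and at 9.28, 9.33 and 10.51 in the tumor. Igf2bp1 and Igf2bp3, fetal RNA-binding proteins, were at differences of -0.40 and -0.03, and Dlk1 at 0.37; the most variable probe set of Igf2bp3 gave 1.96 instead.

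Proliferation genes were higher in each adjacent piece. Of 27 measured cell cycle genes 20 were called higher and 0 lower, with a median of 1.69. Mki67, the gene of the proliferation antigen Ki-67, was at 5.57, 5.72 and 5.53 against 8.52, 7.52 and 8.35 (difference 2.52, SE 0.21, adjusted p = 2.31e-06). Adjacent piece 2 had the lowest value of the 3. The same piece was lowest for the mitotic cyclin Ccnb2 (8.78, 7.73 and 8.58, from 4.46 to 4.56 in wild-type pieces), for the survivin gene Birc5 (8.06, 7.06 and 7.88) and for the mitotic checkpoint gene Cdc20 (9.79, 8.84 and 9.65). The list's median over tested genes, relative to the wild-type mean, was 2.00, 1.29 and 1.88 in pieces 1 to 3. The G1 cyclin Ccnd1 was as high in piece 2 as in the others, at 10.65, 10.55 and 10.56 against 7.89 to 8.20. Of 20 replication genes 6 were called higher and 1 lower: the helicase subunits Mcm6 and Mcm5 rose by 3.42 (SE 0.10) and 1.84 (SE 0.15) and the licensing factor Cdt1 by 2.44, while Mcm10 fell by 1.87 (SE 0.07). Pcna, the polymerase clamp, was at 0.51. The cell cycle inhibitors Cdkn2c and Cdkn2b, which are counted among the 20 higher cell cycle genes, rose by 2.35 and 1.42. Cdkn1a, the p21 gene, is in the same list and was at 0.51.

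Growth factor genes moved in both directions. Btc, which encodes the EGF receptor ligand betacellulin, rose by 2.36 (SE 0.08), while the receptor gene Egfr fell by 2.12 (SE 0.10), from 11.35, 11.55 and 11.69 to 9.57, 9.20 and 9.45. Igf1, the growth hormone-driven factor of adult liver, fell by 1.33 (SE 0.08). The receptor genes Met, Igf1r and Insr were at -0.37, -0.13 and 0.00. Among activin and TGF-beta genes, Tgfb2 rose by 2.69, the activin subunit Inhbb by 2.62 and Fstl1 by 2.09, and the liver-specific activin subunit Inhbc fell by 1.64. The YAP-associated scaffold gene Ajuba rose by 2.88 (SE 0.09), whereas the YAP targets Ccn1 and Ccn2 were at 0.09 and -0.38.

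Among the steepest losses were enzymes and carriers of hepatocytes and a macrophage receptor. Hsd3b5, a male-specific steroid reductase, was at 12.19, 12.18 and 12.29 in the wild-type pieces and at 5.91, 5.26 and 5.91 in the adjacent pieces, a difference of -6.53 (SE 0.16, adjusted p = 5.1e-10), or 92.2-fold. The fatty acid elongase Elovl3 fell by 6.27 (SE 0.34), from 12.69, 12.74 and 12.78 to 7.13, 5.43 and 6.84. Slco1a1, an organic anion uptake carrier, fell by 5.70 (SE 0.14), from 12.01, 12.02 and 12.03 to 6.57, 5.93 and 6.45. These went from the bright end of the scale to within about 2 units of the array median in each piece. Cyp8b1, the sterol 12-alpha-hydroxylase that sets the make-up of the bile acid pool, was at 12.44, 12.44 and 11.98 against 7.46, 6.68 and 6.92 (difference -5.26, SE 0.20). The macrophage scavenger receptor gene Cd163 fell by 4.98 (SE 0.13), from 8.77, 8.81 and 8.76 to below the 40th percentile. Mfsd2a, which encodes a carrier of lysophosphatidylcholine, fell by 4.41 (SE 0.22), and the sulfotransferase gene Sult2a8 fell by 4.21 (SE 0.27). The largest losses were likewise picked among genes without overlapping values, so the lack of overlap in these 7 follows from that choice.

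Many genes that growth hormone makes male-biased in mouse liver fell. Of 22 measured male-biased genes 13 were called lower and 0 higher, with a median of -1.61. They included the urinary protein genes Mup10 at -4.79 and Mup3 at -4.69, the glucuronosyltransferase Ugt2b1 at -3.34, Susd4 at -3.12, Nudt7 at -1.78 and the oxysterol hydroxylase Cyp7b1 at -1.61. The male-biased Cyp4a12a was at -0.34 and C6 at 0.53. Mup and Ugt2b genes are near-identical families whose probe sets can share signal. Of 20 measured female-biased genes 7 were called higher and 1 lower, or 0 lower without wild-type piece 3, with a median of 0.78 over the 15 tested and 0.36 over all 20. Cyp2g1 rose from 6.34, 6.23 and 6.55 to 8.27, 8.18 and 8.54, a difference of 1.95 (SE 0.11), and stood at 5.67, 5.88 and 5.88 in the tumor. The peroxisomal oxidase Hao2 rose by 1.79 (tumor minus adjacent -2.62), and the peroxisomal carrier Abcd2 by 2.24. Cyp2b13 was at -0.05 and Sult3a1 at -0.07. The female-specific repressor Cux2 was at -0.21 by its brightest probe set and at 2.35 by its most variable one, so its direction depends on that choice. In the hormone axis itself the repressor Bcl6 fell by 2.18 (SE 0.07), from 9.38, 9.29 and 9.42 to 7.20, 7.16 and 7.19, and the suppressor of cytokine signalling Socs3 rose by 1.35. Stat5b was at -0.58 and Stat5a at -0.09. Of 31 nuclear receptors 0 were called in either direction by limma at the size limit; 1 was lower without wild-type piece 2 and 3 were with the most variable probe set per gene. Hnf4a was at -0.12, Nr1i3 at -0.28, Ppara at -0.79 and Pparg at -0.21.

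**Figure D3:**
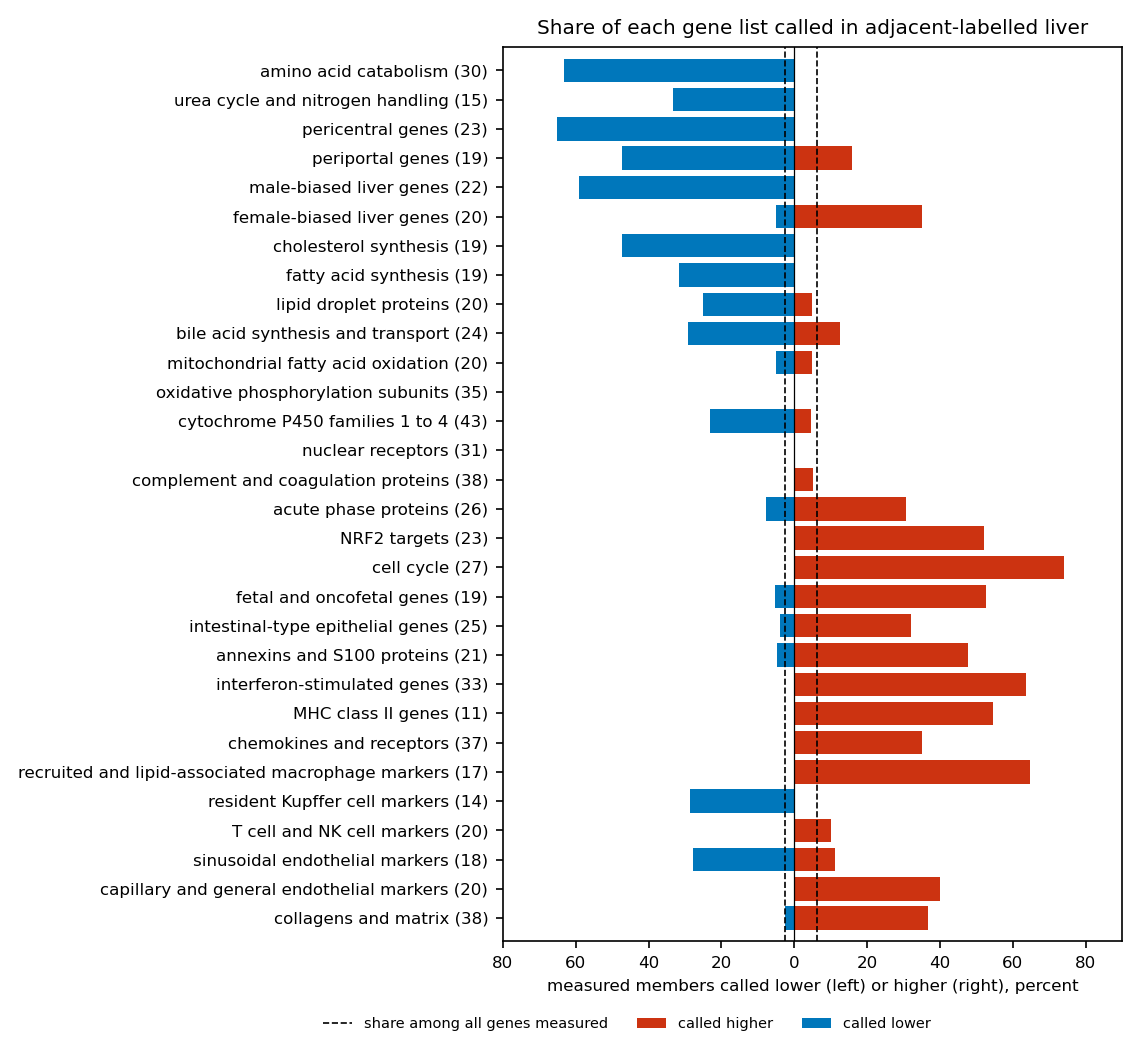
Percent of the measured members of 30 gene lists called lower (blue, to the left) or higher (red, to the right) in adjacent-labelled liver, with the number measured in parentheses. Dashed lines give the share among all 18194 genes, 2.46% lower and 6.33% higher; lists of amino acid catabolism, pericentral and male-biased genes lie to the left, and cell cycle, interferon-stimulated and macrophage genes to the right.

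Amino acid breakdown was the liver function with the broadest loss among the metabolic lists. Of 30 measured enzymes 19 were called lower and 0 higher, with a median of -1.19. Hpd, the tyrosine-degrading hydroxyphenylpyruvate dioxygenase, was at 13.83, 13.86 and 13.89 in wild-type pieces and at 12.06, 12.28 and 11.92 in adjacent pieces (difference -1.78, SE 0.13). Tdo2, which opens the tryptophan ring, fell by 1.45 (SE 0.05), from 13.39 to 13.44 down to 11.94 to 12.00. The proline dehydrogenase Prodh fell by 2.53 (SE 0.18), the tyrosine aminotransferase Tat fell by 1.75, the cystathionine lyase Cth fell by 1.60 and the histidine ammonia-lyase Hal fell by 1.57. Betaine-homocysteine methyltransferase Bhmt was at -0.39 and the kynurenine hydroxylase Kmo at -0.22. In the methyl cycle Gnmt fell by 1.17 and Ahcy fell by 1.35 (13.48 to 13.49 in wild-type and 12.13 to 12.14 in adjacent pieces) and the folate enzyme Aldh1l1 fell 2.83-fold. Of 15 genes of the urea cycle and nitrogen handling 5 were called lower and 0 higher, with a median of -0.83, and 3 were lower with array medians removed. The mitochondrial aspartate carrier Slc25a13 fell by 1.55 and the aspartate aminotransferase Got1 fell by 1.51, whereas Cps1, the entry enzyme of the cycle, was at -0.58 and the mitochondrial aminotransferase Got2 at -0.21. Ass1 counts among the genes called lower, but lost its call under cyclic loess. Its probe set was at 5.58 to 5.88 in wild-type liver, near the array medians of 5.78 to 5.81. Of 15 serine synthesis and one-carbon enzymes 4 were called higher and 3 lower (median 0.38). Psat1 stood at 9.76, 9.13 and 9.43 against 3.90 to 4.39, and the phosphatase Psph rose by 2.10 (SE 0.08), but Phgdh, the first enzyme of the pathway, was at 0.05. Of 23 amino acid carriers 3 were called higher and 6 lower, or 26.1%, with a median of 0.07. The cystine carrier Slc7a11 rose by 2.41 and Slc7a7 by 2.42, while the glutamate carrier Slc1a2 fell by 2.88, the arginine carrier Slc7a2 fell by 1.42 and the betaine carrier Slc6a12 fell by 1.33.

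Of 21 gluconeogenesis and glycogen genes 5 were called lower and 2 higher (median -0.10). Pck1, the phosphoenolpyruvate carboxykinase, was at 13.27, 13.27 and 13.32 in wild-type pieces, at 10.22, 9.93 and 9.97 in adjacent pieces and at 11.49, 11.59 and 11.59 in the tumor, a difference of -3.24 (SE 0.08), or 9.47-fold. Its other bright probe set gave -3.94. The glucose-6-phosphatase gene G6pc fell by 2.80 (SE 0.09), from 12.53, 12.60 and 12.62 to 9.91, 9.66 and 9.78. Fbp1, the enzyme between them, was at -0.55 and the pyruvate carboxylase Pcx at 0.29. The mitochondrial isozyme Pck2 rose by 1.66 and the brain-type glycogen phosphorylase Pygb by 2.81 (SE 0.07), beside -0.55 for the liver isozyme Pygl. Of 23 glycolysis genes 3 were called higher and 1 lower (median 0.09), and 0 were lower without adjacent piece 1; the lower one was the aldolase isozyme Aldoc at -1.09, or -0.97 without that piece. The platelet phosphofructokinase Pfkp rose by 1.88, hexokinase Hk2 by 1.28 and the pyruvate kinase Pkm by 1.08, whereas Gapdh was at -0.03, the liver pyruvate kinase Pklr at -0.28 and Ldha at -0.32. Of 35 oxidative phosphorylation subunits 0 were called, with a median of -0.22 and a range from -0.86 for Ndufa5 to 0.32 for Cox8a.

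The labels grade the adjacent liver as severely and the wild-type liver as mildly steatotic, and the genes of fat storage did not rise together. Plin2, the perilipin that coats hepatocyte droplets, was at 13.28, 13.25 and 13.17 in wild-type pieces and at 13.63, 13.32 and 13.59 in adjacent pieces, a difference of 0.28 (SE 0.08, adjusted p = 0.0135) that misses the size limit. Of 20 droplet proteins 5 were called lower and 1 higher, or 2 higher without wild-type piece 3. Cidea, which encodes a protein that fuses droplets and rises in fatty liver, was at 10.06, 9.57 and 8.11 against 5.83, 4.38 and 4.55 (difference -4.33, SE 0.47). Its relative Cidec fell by 1.51 (6.93, 6.71 and 5.70 against 5.55, 4.25 and 5.02) and stood at 8.26, 8.04 and 7.70 in the tumor, and the fat storage-inducing gene Fitm1 fell by 2.93 (SE 0.18). Plin3, a perilipin of small droplets, rose by 1.51 (SE 0.05), and Plin5 and the lipase gene Pnpla2 were at -0.07 and 0.21. Pparg, the nuclear receptor tied to hepatic fat storage, was at 8.09 ± 0.15 against 7.88 ± 0.12 (mean ± SD, n = 3 pieces each), and its values overlapped. The fatty acid receptor gene Cd36 rose by 1.13 (SE 0.12), and by 0.95 as the mean of its probe sets, which is under the size limit. Of the binding proteins, Fabp5 rose by 1.80 and Fabp4, of fat cells and macrophages, 2.82-fold with its highest value in piece 2 (9.10, 10.36 and 9.16). Lpl, the lipoprotein lipase that adult hepatocytes barely make, was at 7.89, 7.99 and 7.76 against 12.63, 12.64 and 12.51, a rise of 4.71 (SE 0.09); its other probe set gave 4.75. Lpl is also a marker of lipid-associated macrophages, and which cells made it was not tested.

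Fat and sterol synthesis were lower. Of 19 fatty acid synthesis genes 6 were called lower and 0 higher (median -0.60), and of 19 cholesterol synthesis genes 9 were lower and 0 higher (median -0.85). The phosphatidate phosphatase Lpin1 fell by 3.24 (SE 0.13), the acetyl-CoA synthetase Acss2 fell by 2.01, the monoacylglycerol acyltransferase Mogat1 fell by 1.75 and the lipogenic regulator Thrsp fell by 1.72. Fasn, the fatty acid synthase, was at -0.67, Srebf1 at -0.24, Mlxipl at 0.04, Acaca at 0.00 and Scd1 at 0.00; Scd1 was at 13.96 to 14.07 in wild-type and 14.01 to 14.04 in adjacent pieces. Scd2, the desaturase isozyme that liver makes mostly before birth, rose by 5.46 (SE 0.06, adjusted p = 3.53e-12), from 6.29, 6.22 and 6.28 to 11.68, 11.79 and 11.70. In the sterol pathway Lss, the lanosterol synthase, was at 10.26, 10.24 and 9.83 against 8.27, 8.28 and 8.35, a difference of -1.81 (SE 0.11), and stood at 10.78, 10.67 and 10.92 in the tumor. Fdps fell by 1.81 (SE 0.11) and Idi1 fell by 1.47; Hmgcs1 was at -0.64 and Sqle, the squalene epoxidase, at 0.21. Wild-type piece 3 was the lowest wild-type piece for many of these genes (Fasn 12.44, 12.55 and 11.80; Cidea and Lss as above), and the list medians relative to the wild-type mean were 0.09, 0.14 and -0.24 for fatty acid synthesis and 0.06, 0.11 and -0.14 for cholesterol synthesis in wild-type pieces 1 to 3. In adjacent pieces they were -0.57, -0.61 and -0.52, and -0.91, -0.93 and -0.76.

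Fat oxidation lists lay below the median of all genes with few members called. Of 20 mitochondrial oxidation genes 1 was called higher and 1 lower, with a median of -0.30. Without wild-type piece 3, adjacent piece 1 or adjacent piece 3 there were 0 higher, and without adjacent piece 1 or 3 there were 2 lower. Of 21 peroxisomal oxidation genes and PPARA targets 2 were higher and 2 lower, with a median of -0.34. Without adjacent piece 2 there was 1 lower, and with the most variable probe set per gene there were 5 lower. Relative to the wild-type mean the list medians were -0.23, -0.48 and -0.24, and -0.22, -0.62 and -0.24, in adjacent pieces 1 to 3, lowest in piece 2 for both. Acadvl, which starts the oxidation of long chains, was at -0.69, Acaa1b at -0.91 and the peroxisomal carrier Abcd3 at -0.85. Cpt1a, the gate of the pathway, was at 0.57, Acadm at -0.13 and Acadl at 0.07. The omega-hydroxylase Cyp4a14, a target of the nuclear receptor PPARA, fell by 3.20 (SE 0.35), from 12.32, 12.33 and 12.12 to 9.56, 8.22 and 9.39, while the PPARA targets Ehhadh and Vnn1 were at 0.01 and 0.10. Fgf21, which encodes a hormone of fasting and stress, rose by 1.99 (SE 0.17), and Oxct1, the ketone-using enzyme that adult hepatocytes lack, by 1.06. Of 22 apolipoprotein and export genes 3 fell and 2 rose, or 1 without adjacent piece 3. Among those that fell was Apoa5, an activator of triglyceride clearance, which was at 13.45, 13.41 and 13.43 against 11.43, 10.45 and 11.11 and at 12.96, 12.98 and 12.94 in the tumor. Apob was at -0.10, Mttp at -0.56 and Apoa1 at 0.00. In bile acid handling 7 of 24 genes were called lower and 3 higher. Beside Cyp8b1 the lower ones were the uptake carriers Slc10a1 (-3.18) and Slco1b2 (-2.50), the bile acid ligase Slc27a5 (-2.02), Cyp7b1 (-1.61), Cyp27a1 (-1.61) and Hsd3b7 (-1.14). Cyp7a1, the rate-limiting enzyme of the classic route, was at -0.48 (adjusted p = 0.105). The basolateral efflux pump Abcc4 rose by 4.72 (SE 0.13) and the efflux subunit Slc51b by 1.67, whereas the canalicular bile salt pump Abcb11 was at -0.61.

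Genes of both ends of the lobule were lower. Of 23 pericentral genes 15 were called lower and 0 higher (median -1.45), and of 19 periportal genes 9 were lower and 3 higher (median -0.97). The difference between the 2 lists was not tested. Oat, an ornithine aminotransferase of the last hepatocytes before the central vein, fell by 3.40 (SE 0.65), Rgn fell by 3.01 (SE 0.44), the liver-secreted chemotactic factor Lect2 fell by 3.14 (SE 0.42) and the alcohol- and drug-oxidising Cyp2e1 fell by 1.79 (SE 0.48). The Wnt receptor Lgr5 fell by 1.98, the Wnt feedback ligase Rnf43 fell by 1.55 and the transcription factor Tbx3 fell by 1.81. Glul, the glutamine synthetase of the innermost cells, was at 11.47, 11.56 and 11.85 against 11.13, 10.19 and 11.07, a difference of -0.83 (adjusted p = 0.112). Of endothelial Wnt signals that maintain this zone, Wnt2 fell by 1.88 (SE 0.23) and Rspo3 fell by 1.43, and Wnt9b was at -0.28. On the portal side Cdh1, the epithelial cadherin, rose by 3.45 (SE 0.17) and the aldehyde dehydrogenase Aldh1b1 by 2.37, and the airway-type P450 Cyp2f2, a portal marker, was at 0.05.

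The 3 adjacent pieces were not alike in these genes. Of the tested genes 99 (0.713%) had an SD above 0.5 among the adjacent pieces, against 38 (0.274%) among the wild-type pieces. The 10 largest SDs belonged to Hamp, Mup3, Oat, Cxcr4, Mup10, Cyp2e1, Igfbp3, Rgn, Elovl3 and Sparcl1. Oat was at 11.17, 8.42 and 10.43 in adjacent pieces 1 to 3, Rgn at 11.31, 9.29 and 10.65, and Cyp2e1 at 13.02, 11.04 and 12.58, where the wild-type pieces of Cyp2e1 were at 13.90, 13.93 and 14.17. Piece 2 was the lowest in all 3. Mup3 followed the same order at 10.09, 7.22 and 8.96, as did Mup10 at 6.32, 4.08 and 5.53. Hamp, which encodes the iron hormone hepcidin, spread furthest, at 10.87, 7.01 and 9.23 against 12.94 to 13.08. Piece 2 was instead the highest for the chemokine receptor Cxcr4 (5.65, 7.92 and 6.34), for Igfbp3 (8.04, 9.88 and 8.13) and for the vascular matrix gene Sparcl1 (6.87, 8.61 and 7.43). The pericentral list's median relative to wild type was -1.09, -1.65 and -1.30 in pieces 1 to 3, and that of the periportal list -0.93, -0.90 and -0.93. Over the 447 genes called lower, piece 2 was the lowest of the 3 for 55.9%, against 44.0% of all tested genes. Without piece 2 the fits gave -2.61 for Oat, -3.92 for Mup3, -2.94 for Hamp and -1.20 for Cyp2e1.

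**Figure D4:**
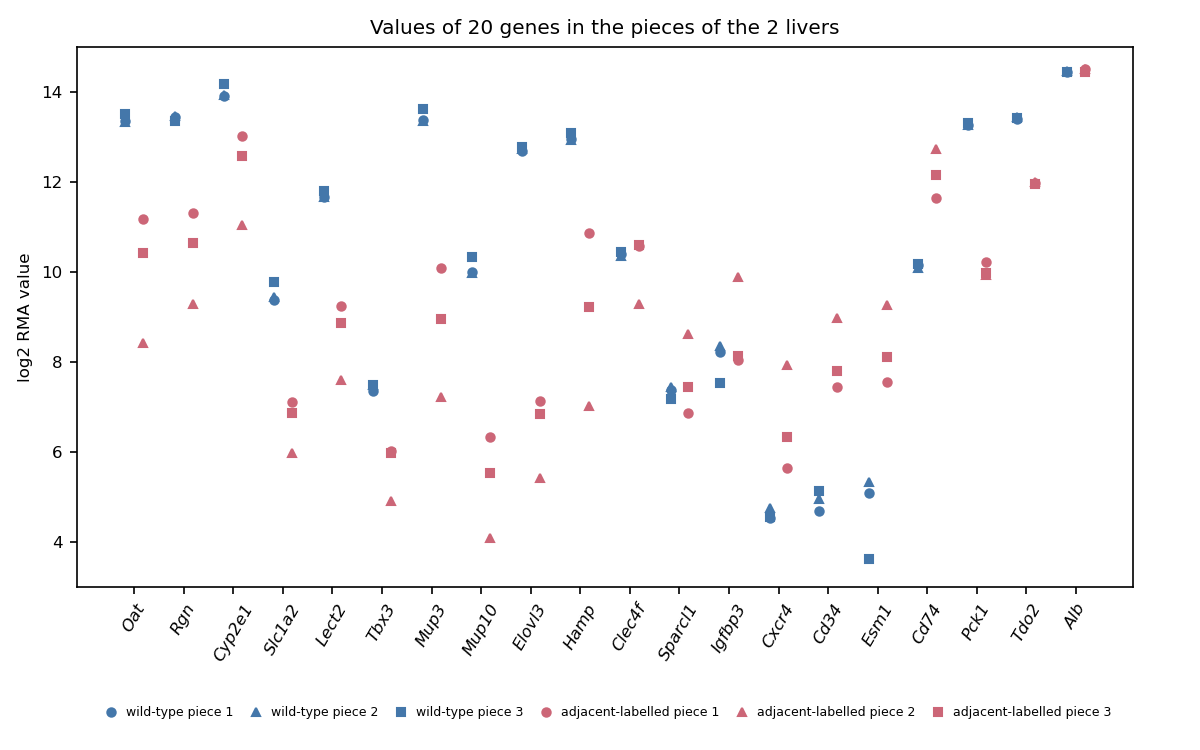
Log2 RMA values of 20 genes in wild-type (blue) and adjacent-labelled (red) pieces, with circles, triangles and squares for pieces 1, 2 and 3. The triangle is lowest in adjacent-labelled liver from Oat to Clec4f and highest from Sparcl1 to Cd74; Pck1, Tdo2 and Alb, at the right, lie close together.

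Drug-metabolising genes moved in both directions, with the cytochrome P450 gains below the share over all genes. Of 43 measured cytochrome P450 genes of families 1 to 4, 10 were called lower (23.3%) and 2 higher (4.65%). Of all genes measured, 2.46% were called lower and 6.33% higher. Cyp2c37 fell by 3.05 (SE 0.10), Cyp2b10 fell by 2.93 (SE 0.19), Cyp2c50 fell by 2.33 (SE 0.35) and Cyp1a2 fell by 1.34 (SE 0.15), whereas Cyp3a11 was at -0.10 and Cyp2d10 at -0.35. Cyp2c genes are near-identical and may share signal. Of the conjugating enzymes the methyltransferase Nnmt fell by 3.08 and the glutathione transferase Gstt3 fell by 2.30, while Ugt2b37 rose by 2.74 and Sult1c2 by 2.57, from 6.79, 6.87 and 6.77 to 9.43, 9.31 and 9.39. Of 23 targets of the antioxidant factor NRF2, 12 were called higher and 0 lower (median 1.13), with 1 lower without wild-type piece 3, adjacent piece 1 or adjacent piece 3. Nqo1, the quinone reductase that is its classic target, was at 5.95, 6.17 and 6.16 against 8.98, 8.81 and 8.95 (difference 2.81, SE 0.13). The sulfiredoxin Srxn1 rose by 2.19 and the glutathione transferase Gstm3 by 2.29 to 13.91 to 13.93, beside Gclm at 0.27, Gclc at 0.44, Txnrd1 at 0.49 and Hmox1 at 0.60. Of 24 drug and anion transporters 4 were called higher and 5 lower (median -0.06). The efflux pumps Abcb1a (3.80, SE 0.14) and Abcc5 (2.79, SE 0.13) rose with Abcc4; the other probe sets of Abcc5 ranged from -0.18 to 3.58. The pumps Abcc3, Abcg2 and Abcc6 were at -0.07, 0.11 and -0.88.

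Of 26 metal, iron and heme genes 6 were called higher and 4 lower (median 0.20). The metallothioneins Mt1 and Mt2, which bind zinc and copper, rose by 3.16 (SE 0.10) and 3.10 (SE 0.11); Mt1 was at 9.36, 9.21 and 9.39 against 12.48, 12.34 and 12.63. The zinc importer Slc39a4 rose by 3.70 (SE 0.23), from 8.83, 8.80 and 9.83 to 12.82, 12.80 and 12.93. Hamp fell by 3.95 (SE 0.72, adjusted p = 0.000739) and its paralog Hamp2 fell by 3.52 (SE 0.22), and their probe sets may share signal. Hjv, Tmprss6 and Tfr2, which act upstream of hepcidin, were at 0.14, 0.19 and -0.30 and Bmp6 at -0.61. The transferrin receptor gene Tfrc rose by 1.34. Acute phase genes were split: 8 of 26 were called higher and 2 lower, the higher including the endotoxin receptor gene Cd14 (3.81, SE 0.11), Orm2 (2.69, SE 0.28) and Apcs (2.47-fold), while Saa1 was at 0.70, Saa3 at -0.06, Hp at 0.41 and Crp at -0.62.

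Clock output genes differed, with all pieces taken at unstated hours. Dbp, a factor at the end of the clock, was at 7.39, 7.35 and 7.56 against 10.09, 10.12 and 10.22, a rise of 2.71 (SE 0.09), and Nfil3, which opposes it, fell by 1.61 (SE 0.08). Arntl, the activator of the clock, fell by 1.45 (SE 0.12) and Cry1 fell by 1.27, and Clock and Nr1d1 were at 0.14 and -0.11. A difference between the animals in the hour of sampling cannot be told apart from these values. Among stress genes the factor Atf3 rose by 2.11 and Nupr1 by 1.97, the growth-arrest gene Ddit4 fell by 1.42 and the inducible heat shock gene Hspa1b fell by 2.58, and the endoplasmic reticulum chaperone Hspa5 was at -0.58. Of 24 hypoxia genes 1 was called higher, Ndrg1 (1.35), and 1 lower, Pdk1 (-1.60), or 2 lower without wild-type piece 2, adjacent piece 1 or adjacent piece 3; Hif1a was at 0.43 (9.40, 9.56 and 9.61 against 9.98, 9.83 and 10.04), Epas1 at 0.40, Vegfa at -0.12 and Car9 at -0.02. Of 23 tri-snRNP genes, the complex of Sart1, 0 were called (median 0.08). Around Rragd, 22 of the other 23 measured Rag, folliculin and TFE genes were not called, with Rragc at 0.31, Flcn at -0.06 and Tfeb at 0.18; Gpnmb, also a macrophage gene, rose by 1.63. Of 37 lysosomal genes 8 were called higher and 1 lower (median 0.45), led by the glucuronidase Gusb at 1.69 (SE 0.06).

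Epithelial structure genes rose selectively. Of 25 genes typical of intestinal epithelium 8 were called higher and 1 lower. The higher ones are Tspan8, Vil1, Anxa13, the claudin Cldn7 (5.31, SE 0.11), Ly6d (5.19, SE 0.12), Tff3, Krt20 (1.99) and Cdh17 (1.46). The defining intestinal factors Cdx2 and Cdx1 were at -0.39 and -0.16, and Lgals4 and Fabp2 at -0.25 and -0.36. Of 15 bile duct and progenitor genes 6 were called higher and 0 lower, with a median of 0.65 over tested and 0.30 over measured members. They included Prom1, Cd24a, Cldn7, Tnfrsf12a (3.07) and the chloride channel gene Cftr (1.34). The duct keratins Krt19 and Krt7 were at -0.13 and 0.21, Epcam at -0.06 and Sox9 at 0.99. The hepatocyte keratins Krt8 and Krt18 rose by 1.59 (SE 0.07) and 1.72 (SE 0.06), Krt18 from 11.45, 11.33 and 11.32 to 13.10, 13.08 and 13.09. Of 22 cytoskeletal genes 11 were called higher and 0 lower (median 1.14), and of 21 annexins and S100 proteins 10 were higher and 1 lower, or 0 lower without wild-type piece 1, adjacent piece 1 or adjacent piece 3. Those higher included Anxa5 (1.66), Anxa2 (2.18), S100a6 (2.37) and the neutrophil genes S100a8 (2.82) and S100a9 (2.41).

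Interferon-stimulated genes rose widely. Of 33 measured members 21 were called higher and 0 lower, with a median of 1.22. Oas1a, which makes the activator of the antiviral ribonuclease RNase L, was at 7.35, 7.55 and 7.09 in wild-type and 10.24, 9.94 and 10.26 in adjacent pieces (difference 2.81, SE 0.12, adjusted p = 1.53e-08). Oasl2 rose by 2.94 (SE 0.15), the GTPase Mx1 by 2.83 (SE 0.15), the T cell chemokine Cxcl10 by 2.25 (SE 0.28), the RNA-binding Ifit1 by 1.73 (SE 0.17) and the guanylate-binding Gbp2 by 1.71 (SE 0.15). Rsad2 and Cmpk2, which belong to the same response, were at 0.44 and 0.49, Stat2 and Irf9, its transcription factors, at 0.09 and 0.04, and Mx2 at 0.01.

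Most of the promoters available for these genes show the letters that the family is known for. The response element of interferon-activated factors was searched as GAAA, any 2 bases and GAAA (on the other strand TTTC, any 2 bases and TTTC) in the RefSeq promoters of build GRCm38.p6, from 250 bases before to 50 after the start. It was found in 15 of the 23 list members with a promoter sequence, or 65.2%, and in 3.99% of 27025 genes. Members called higher held it in 11 of 16 and members not called in 4 of 7. The stretches around the matches of 4 called genes are shown 5′ to 3′ on the gene's strand, with the matches in capitals, as examples of the motif. They lie at chr5:120907526-120907615 (Oas1a, minus strand), chr19:34640745-34640834 (Ifit1, plus strand), chr5:92349050-92349139 (Cxcl10, minus strand) and chr3:142620564-142620653 (Gbp2, plus strand), all upstream of the start.
Oas1a: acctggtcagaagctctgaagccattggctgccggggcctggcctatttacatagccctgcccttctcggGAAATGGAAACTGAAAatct
Ifit1: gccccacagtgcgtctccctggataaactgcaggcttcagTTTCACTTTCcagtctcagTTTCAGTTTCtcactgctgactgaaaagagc
Cxcl10: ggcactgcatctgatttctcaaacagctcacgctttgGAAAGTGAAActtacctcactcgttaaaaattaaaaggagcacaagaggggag
Gbp2: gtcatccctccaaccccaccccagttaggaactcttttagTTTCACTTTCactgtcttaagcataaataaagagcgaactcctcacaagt
A match is a description of the letters and not of binding. The sterol regulatory motif TCACNCCAC was found in 1 of 16 cholesterol synthesis promoters and in 1.44% of all.

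Antigen presentation and inflammatory genes were higher as well. Of 11 MHC class II genes 6 were called higher and 0 lower (median 1.46); the invariant chain gene Cd74 was at 10.16, 10.08 and 10.17 against 11.65, 12.74 and 12.16, with the highest value in piece 2. The immunoproteasome subunits Psmb8 and Psmb9 rose by 1.95 (SE 0.10) and 1.36 (SE 0.09), while the constitutive subunits Psmb5 and Psmb6 were at 0.22 and -0.21. Of 37 chemokine genes 13 were called higher and 0 lower. Cxcl9 rose by 2.05, and Ccl5 was at 7.58, 7.82 and 7.93 against 8.97, 9.51 and 9.28 (difference 1.48, SE 0.14). Of NF-kB and cytokine genes 11 of 28 were called higher and 1 lower, the higher including the receptor of TWEAK Tnfrsf12a (3.07, SE 0.06), Ltb (2.51), the adhesion gene Icam1 (2.44), Il33 (2.17) and Relb (2.15). The cytokines Tnf, Il6 and Il1b were at 0.07, -0.06 and 0.33, and the interleukin-6 receptor gene Il6ra fell by 1.90 (SE 0.06).

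Markers of immune cells did not rise together. In bulk tissue fewer cells of a type and less RNA per cell cannot be told apart. Of 17 markers of recruited and lipid-associated macrophages 11 were called higher and 0 lower (median 1.40): beside Lpl and Cd14 these included the elastase Mmp12 (3.10), the tetraspanin Cd9 (2.86, SE 0.07), Lgals3 (2.12) and Itgax (1.69). Trem2, which defines those cells, was at 0.47 (6.33, 6.15 and 6.14 against 6.49, 6.96 and 6.59) and the general macrophage gene Adgre1 at 0.72. Of 14 resident Kupffer cell markers 4 were called lower and 0 higher, and without adjacent piece 2 there were 2 lower and 2 higher. Cd163 is described above and Timd4 fell by 1.52, while Clec4f, which defines these cells, was at 10.39, 10.36 and 10.43 against 10.57, 9.29 and 10.61, and Vsig4 at 10.29, 10.20 and 10.35 against 10.71, 9.78 and 10.89. Piece 2 was the low one in both. Of 20 T cell and NK cell markers 2 were called higher, the cytotoxic granule genes Gzmb (1.03) and Nkg7 (1.05), and 0 lower; without adjacent piece 2 there were 0 higher and without wild-type piece 3 there was 1. Gzmb missed the size limit without wild-type piece 3 (0.94) or adjacent piece 2 (0.95), and Nkg7 without wild-type piece 2 (0.93) or adjacent piece 2 (0.87). The T cell receptor chain gene Cd3g was at 0.77, and Cd3e, Cd8a and Cd4 at -0.03, -0.08 and -0.23. Of 12 B and plasma cell markers 0 were called higher and 1 lower; Cd79b was at 0.65, Cd79a at 0.04 and Ms4a1 at 0.29.

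Matrix and vessel genes rose in part. Of 38 collagens and matrix genes 14 were called higher and 1 lower (median 0.68), with 0 lower without adjacent piece 1 and 2 without wild-type piece 1, wild-type piece 3 or adjacent piece 2. Col1a1, the main fibrillar collagen gene of scar, was at 6.09 ± 0.15 against 9.24 ± 0.35 (mean ± SD, n = 3 pieces each; difference 3.15, SE 0.20), and Col3a1 rose by 2.71, Col5a2 by 2.87, the basement membrane gene Col4a1 by 2.32 and Sparc by 2.67. Sparc was at 12.30 to 12.35 in the adjacent and 10.69 to 10.80 in the tumor pieces. Acta2, the myofibroblast actin, was at 7.77, 7.99 and 7.66 against 9.12, 8.61 and 8.44, a difference of 0.92 that misses the size limit. Of 25 stellate cell and myofibroblast markers 9 were called higher, or 36.0%, and 2 lower (median 0.68). Leaving out wild-type piece 1, wild-type piece 2 or adjacent piece 2 gave 1 lower. Timp1, a protease inhibitor, rose by 2.29, Vim, the mesenchymal intermediate filament, by 1.76 and the pericyte gene Rgs5 by 1.83; Des was at -0.04 and Dcn at -0.48. Of 20 capillary and general endothelial genes 8 were called higher and 0 lower: Cd34 rose by 3.15 (7.43, 8.96 and 7.80 in adjacent pieces), the tip cell gene Esm1 by 3.63 (7.54, 9.26 and 8.11), Pdgfb by 2.13 and Apela as above. Piece 2 was the highest for Cd34 and Esm1, and the list's median was 0.43, 1.11 and 0.52 in pieces 1 to 3. Of 18 sinusoidal endothelial markers 5 were called lower, or 3 without adjacent piece 2, and 2 higher, or 1 without wild-type piece 3 or adjacent piece 3; Stab2 was at -0.40, and the lymphatic and sinusoidal receptor Flt4 rose by 1.76 (SE 0.07).

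Finally, the differences were not spread evenly over the chromosomes. Chromosome numbers are those of the RefSeq table of GRCm38.p6. The median difference of tested genes was 0.28 on chromosome 1 (800 genes), 0.27 on 18 (330) and 19 (506), 0.22 on 15 (574), 0.21 on 17 (704) and 0.13 on 5 (889), and it was -0.19 on 10 (668), -0.15 on 12 (483) and -0.13 on 6 (722), with the other autosomes and X between -0.11 and 0.06. The 3 adjacent pieces were close to each other: 0.25, 0.26 and 0.32 on chromosome 1, and -0.18, -0.20 and -0.17 on chromosome 10, where each wild-type piece lay within 0.01 of the wild-type mean. On chromosome 1, 67.4% of genes were above 0 and 14.1% called higher, and on chromosome 10, 32.2% and 4.94%, against 49.3% and 8.29% over all tested genes. Among genes brighter than the median gene the medians were wider, 0.42 on 15, 0.41 on 18, 0.39 on 1 and -0.29 on 10, and among the dimmer genes they were -0.04, -0.01, 0.04 and -0.11. Over genes that were not called they were 0.20 on chromosome 1 and -0.18 on chromosome 10. Sart1 itself lies on chromosome 19. The tumor differed from this order: its median against wild type was 0.27 on 15 but 0.06 on 1, 0.03 on 18, -0.12 on 19 and -0.20 on 8.

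**Figure D5:**
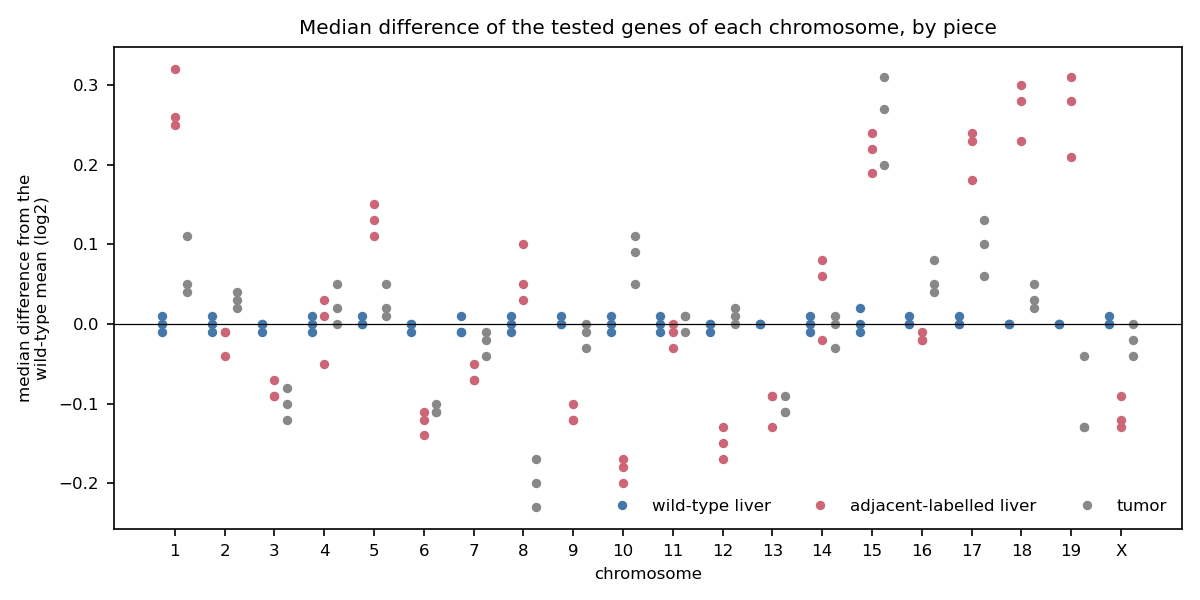
Median log2 difference from the wild-type mean over the tested genes of each chromosome, 1 point per piece for wild-type liver (blue), adjacent-labelled liver (red) and tumor (grey). The 3 red points stand together furthest above 0 on chromosomes 1, 5, 15, 17, 18 and 19 and furthest below 0 on 6, 9, 10, 12, 13 and X.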

How the data were processed

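Affymetrix arrays of 9 liver pieces were deposited as a series matrix. The deposited log2 values were made by the authors with RMA. The software, per the submitters' processing notes, was Affymetrix Expression Console, version 1.3.1.187; array signal, not read depth, sets the precision, and the number of arrays limits it. Of 45101 probe sets, 34958 carried 1 gene symbol, 932 several and 9211 none; the probe set with the highest mean over the 9 arrays stood for each of 18194 genes. Genes above their array's 40th percentile on at least 3 arrays (13888) entered the test, limma's lmFit and eBayes (limma 3.58.1, R 4.3.3), with 3 group means, 6 residual degrees of freedom, and p-values adjusted by Benjamini-Hochberg over every tested gene. List counts take all measured members, untested ones as not called. On simulated data, 100 of 100 genes changed by 2 on the log2 scale and 50 of 100 changed by 1 were called (13888 genes). Of the unchanged genes 0 were called. A change of 1 lies at the size limit itself, and the simulated noise was independent and sized by the spread between pieces. The simulation therefore does not give the error rate of a comparison between animals.

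Genes were named by rule: the top 25 rises and top 25 falls by size among called genes without overlapping values, the 20 brightest called genes in each direction, from each list at most 6 members, taken by adjusted p, the 10 genes with the largest spread among adjacent pieces, Sart1, Hif1a, Epas1, Ccl5, Alb, Nnt, Xist, Pparg and Cd36, and list members that were not called. The following called list members, which the rule leaves out, were chosen after their values had been seen: Aldoc, Ass1, Birc5, Cdc20, Cdh17, Cry1, Cth, Cxcl10, Cxcl9, Cyp7b1, Esm1, Fabp5, Gbp2, Got1, Gpnmb, Hal, Ifit1, Itgax, Krt20, Ltb, Mki67, Mmp12, Nqo1, Orm2, Prodh, S100a6, Slc1a2, Slc7a11, Slco1b2, Spink1, Tbx3 and Tfrc. The members and lists were chosen with earlier results of these data known. Promoter sequences are RefSeq's, build GRCm38.p6. Alternatives changed the filter, the choice of probe set, the scaling, the variance model, the arrays fitted and the threshold, and left out each array in turn.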

Additional observations from a re-analysis of the deposited data

Results flagged for a closer look

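Probe sets without a single gene symbol were outside the gene comparison and also differed between the livers. Of 932 probe sets with several symbols, 657 were tested, of which 67 were called higher and 17 lower in adjacent-labelled liver. Of 9160 probe sets with no symbol that are not array controls, 3223 were tested, of which 122 were called higher and 81 lower. Beside these, 1152 of the 13888 named genes tested were called higher (8.29%) and 447 lower (3.22%). An excess over the named genes was not tested.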

How the results depend on the processing

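The counts of 1599 called genes, 1152 higher and 447 lower, stayed within 1.5 times under the other filters, probe set choices, scalings and variance models tried. With the size limit dropped they were 8745, 4728 and 4017, and at 4-fold or more 406, 318 and 88, by the construction of those thresholds. Leaving out each array gave 1592 to 1645 called, 1120 to 1189 higher and 419 to 481 lower. The fit with the replicate number as a block called 1599 genes, 1152 higher and 447 lower; the numbers share only a label, with correlations of deviations of -0.038, 0.103 and 0.138. The mean of a gene's probe sets called 865 higher and 392 lower and shared 1188 calls. Of the 203 called genes named, 3 lost their call when an array was left out (Aldoc, Gzmb and Nkg7) and 16 did under another alternative. With the mean of probe sets these were Aldoc (-0.58), Anxa2 (0.88), Arntl (-0.96), Cd36 (0.95), Cyp27a1 (-0.88), Fabp4 (0.91), Fdps (-0.99), Gpnmb (0.86), Mcm10 (-0.86), Oxct1 (0.78), Pfkp (1.00), Rspo3 (-0.90) and Tfrc (0.88). Ass1 was lost under cyclic loess (-0.95), and Gzmb (0.92), Nkg7 (0.99) and Oxct1 (0.99) with array weights. List counts that moved over 1.5 times when an array was left out are given beside them. Other settings moved further list counts, of which the following are examples. The mean of probe sets gave 3 activin and TGF-beta genes higher in place of 6, and 2 sinusoidal markers lower in place of 5. The most variable probe set gave 5 peroxisomal genes and PPARA targets lower in place of 2. Probe set choice turned Cux2 to 2.35 (most variable) and 1.22 (mean), and Igf2bp3 to 1.96 and 1.16; the cause was not tested. Signals near the bottom of the scale limit the size of differences in dim genes.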
